A study of Sus scrofa with 19 samples.

Results

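CEBPB, NR4A2, SGK1, FOS and JUN are genes that cells can switch on quickly after a hormone or growth factor arrives. They were followed here in endometrium (the uterine lining) of 8-month-old crossbred gilts, which are young female pigs (Sus scrofa). Probes were chosen by their RefSeq accession, which had to map to one of these 5 genes, and by the scanner's flag for signal well above background, required on at least 4 arrays. Apart from that flag, which reads signal, no level and no difference between groups entered the rule. The 5 genes were picked with earlier results of these data known, in which CEBPB was named. The values of the 5 genes are therefore no independent evidence. Each gene had 1 such probe, 5 of 39095 probes tested and 5 of 3010 tested genes with a symbol. Every member probe was well above background on 19 of 19 arrays, so none lay near that limit.

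All gilts carried cannulas in both uterine horns, placed on days 8 to 9 of the oestrous cycle, and were infused every 4 h over 24 h on days 11 to 12. Hormone horns (6 arrays, gilts 36, 38, 40, 41, 44 and 47) received 200 µg of prostaglandin E2 (PGE2) and 33.3 µg of estradiol (E2) per infusion. Placebo horns of treated gilts (5 arrays, gilts 36, 38, 41, 44 and 47) received 5 mL of saline with 1% ethanol while the other horn of the same gilt received the hormones. In control gilts (gilts 9, 14, 28 and 46) both horns received that vehicle, which gave 4 arrays marked P and 4 marked L. What P and L stand for is not given in the labels. The hormone horn of gilt 40 and all 5 placebo horns carried the mark L, and the other 5 hormone horns the mark P.

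PGE2 acts on receptors that raise cyclic AMP, and the kinase that cyclic AMP activates phosphorylates CREB, a factor that can induce FOS, NR4A2 and CEBPB. FOS and JUN proteins pair to form AP-1, a transcription factor that growth factors and estrogen also engage. CEBPB is a leucine zipper factor of acute phase and steroid responses that endometrial stroma needs for decidualization in mice and women, and SGK1 is a kinase induced by serum and corticosteroids that regulates sodium channels in epithelia. In the pig, estradiol and PGE2 are among the signals that a conceptus and the uterus exchange when pregnancy is established.

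The signal of each array was scaled to its 75th percentile, so a log2 value of 0 is the brightness of that percentile. The scale suits comparisons of 1 probe between arrays and not of 1 probe with another. The 75th percentile was 594 to 978 intensity units, 79.1% to 88.4% of probes were well above background, and 0 spots were saturated. Markers of the tissue were present in all groups: 5 of 9 listed epithelial and 5 of 10 listed stromal markers were measured and were well above background on every array. Neutrophil markers (6 of 10 measured) summed to 1.33 to 68.8 times the 75th percentile in hormone horns, 0.317 to 81.1 in placebo horns of treated gilts and 0.422 to 0.860 in control horns. Both horns of gilt 47 stood apart in macrophage and dendritic cell markers, with sums of 183 and 212 in its hormone and placebo horn, against 14.6 to 41.5 in the other treated horns and 8.26 to 15.9 in control horns. They also stood apart in T and natural killer cell markers (17.0 and 16.1, against 3.82 to 8.44 on all other arrays) and in B and plasma cell markers (0.761 and 0.899, against 0.0890 to 0.209). Smooth muscle markers (3 of 5 measured) summed to 211 in the P horn of control gilt 9, against 29.9 to 80.7 in the other control horns. That array was also the lowest of all 19 for CEBPB, SGK1 and FOS. In whole tissue, more cells of a type and more RNA per cell cannot be told apart.

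**Figure D1:**
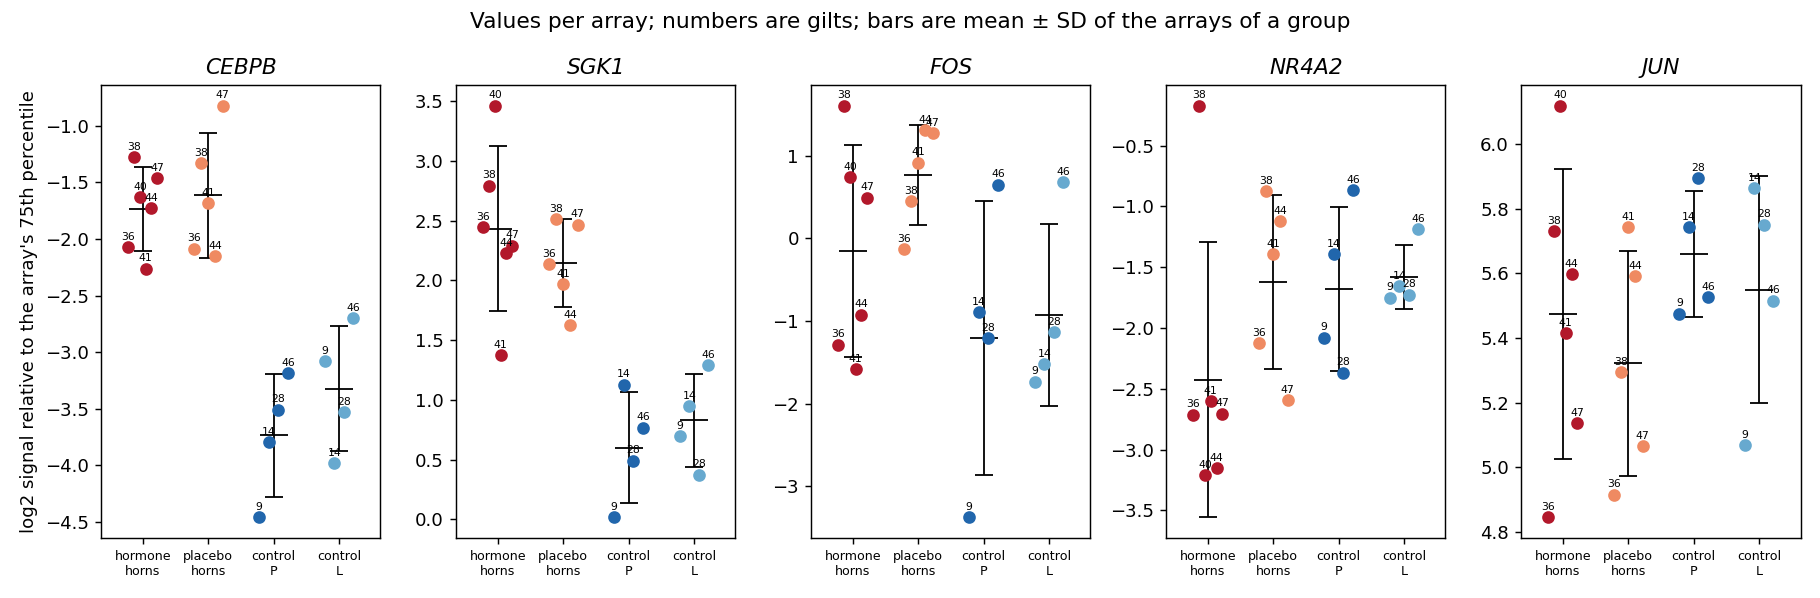
Log2 signal of the 5 genes relative to each array's 75th percentile (vertical axes, which differ between panels), 1 point per array labelled with its gilt, with the mean and SD of each group in black. CEBPB and SGK1 are higher in every horn of treated gilts than in any control horn, whereas FOS, NR4A2 and JUN overlap between groups.

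CEBPB was higher in all horns of treated gilts, whichever infusion the horn received. In hormone horns its log2 value was -2.26 at the lowest, -1.68 at the median and -1.28 at the highest. In placebo horns of treated gilts it was -2.09, -1.33, -1.68, -2.15 and -0.82 in gilts 36, 38, 41, 44 and 47, and in control gilts 9, 14, 28 and 46 it was -4.46, -3.79, -3.51 and -3.18 in P horns and -3.08, -3.98, -3.53 and -2.70 in L horns. The 11 horns of treated gilts thus lay above all 8 control horns, with no overlap. The lowest treated horn, the hormone horn of gilt 41 at -2.26, was above the highest control horn, the L horn of gilt 46 at -2.70.

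Against control gilts, CEBPB rose by 1.79 ± 0.30 log2 units in hormone horns (difference ± SE, 6 hormone and 8 control arrays; 3.45-fold, 95% interval 2.25 to 5.31; limma adjusted p = 0.00242). It rose by 1.92 ± 0.30 in placebo horns (5 arrays; 3.80-fold, 95% interval 2.44 to 5.91; limma adjusted p = 0.00918). Both comparisons share the control horns and the treated gilts, so the second is not a repeat of the first. Without gilts 14 or 28 the placebo difference stayed at 1.81 and 1.93 while its adjusted p was 0.0502 and 0.0580 (limma). Averaging the horns of each control gilt gave 1.91 with an adjusted p of 0.0853. With the P horn of control gilt 9 left out, a choice made after its marker values were seen, CEBPB still passed in both comparisons, at 1.65 and 1.78 (limma adjusted p = 0.00309 and 0.0128).

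SGK1 showed the same arrangement of groups. Its log2 value in hormone horns was 1.37 at the lowest, 2.37 at the median and 3.46 at the highest, the last in gilt 40. Placebo horns of treated gilts had 2.14, 2.52, 1.97, 1.63 and 2.47 in gilts 36, 38, 41, 44 and 47, and control gilts 9, 14, 28 and 46 had 0.02, 1.13, 0.49 and 0.77 in P horns and 0.70, 0.95, 0.38 and 1.29 in L horns. Again no treated horn overlapped a control horn, although the margin was small: the hormone horn of gilt 41 was at 1.37 and the L horn of control gilt 46 at 1.29.

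SGK1 rose by 1.72 ± 0.29 log2 units in hormone horns against control gilts (3.29-fold, 95% interval 2.14 to 5.05; limma adjusted p = 0.00286) and by 1.54 ± 0.30 in placebo horns (2.91-fold, 95% interval 1.87 to 4.53; limma adjusted p = 0.0210). The placebo call was less firm: the adjusted p was 0.0672, 0.0771 and 0.0895 without gilts 9, 14 and 28 (limma), with differences of 1.43, 1.65 and 1.45. It was 0.0502 without gilt 47 and gilt 36's hormone horn, at a difference of 1.48. Without the P horn of control gilt 9 the differences were 1.63 and 1.46, and both passed (limma adjusted p = 0.00516 and 0.0356).

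Of the 5 genes, these 2 rose and 0 fell in each comparison with control gilts. Among all probes 11.7% passed in hormone horns, 6.85% as higher and 4.89% as lower, and 4.49% passed in placebo horns, 2.56% as higher and 1.93% as lower. Among RefSeq probes, the class to which the 5 belong, 15.2% passed as higher and 2.12% as lower in hormone horns, and 6.09% as higher and 0.68% as lower in placebo horns. Ranges of arrays that did not overlap, with the treated horns higher, occurred in 3.95% of probes for hormone horns and in 3.05% for placebo horns. The median difference of RefSeq probes was 0.20 log2 units in hormone horns and 0.13 in placebo horns, against 0.01 and -0.06 over all probes. The median brightness of RefSeq over contig probes itself separated treated from control arrays, and with that measure as a term, chosen after it was seen, CEBPB differed by 1.14 and 1.25 and SGK1 by 1.66 and 1.47 in hormone and placebo horns, but no probe passed (limma; adjusted p 0.968 for both genes in hormone horns and 1.00 in placebo horns, unadjusted p 0.0218 and 0.0163 for CEBPB and 0.00370 and 0.0106 for SGK1).

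Arrays had been scanned on 3 days, each with treated and control gilts. Within scan days 1, 2 and 3, CEBPB differed by 1.87, 1.75 and 1.57 log2 units in hormone horns and by 1.65, 2.19 and 1.86 in placebo horns. SGK1 differed by 1.98, 1.68 and 1.51 in hormone horns and by 1.52, 1.80 and 1.46 in placebo horns. The sizes were thus close to those over all days, but no value within a day passed (limma adjusted p 0.0666 to 0.738; 1 or 2 control gilts per day, with the correlation within a gilt taken from all arrays). With scan day as a term over all arrays both genes passed in both comparisons.

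**Figure D2:**
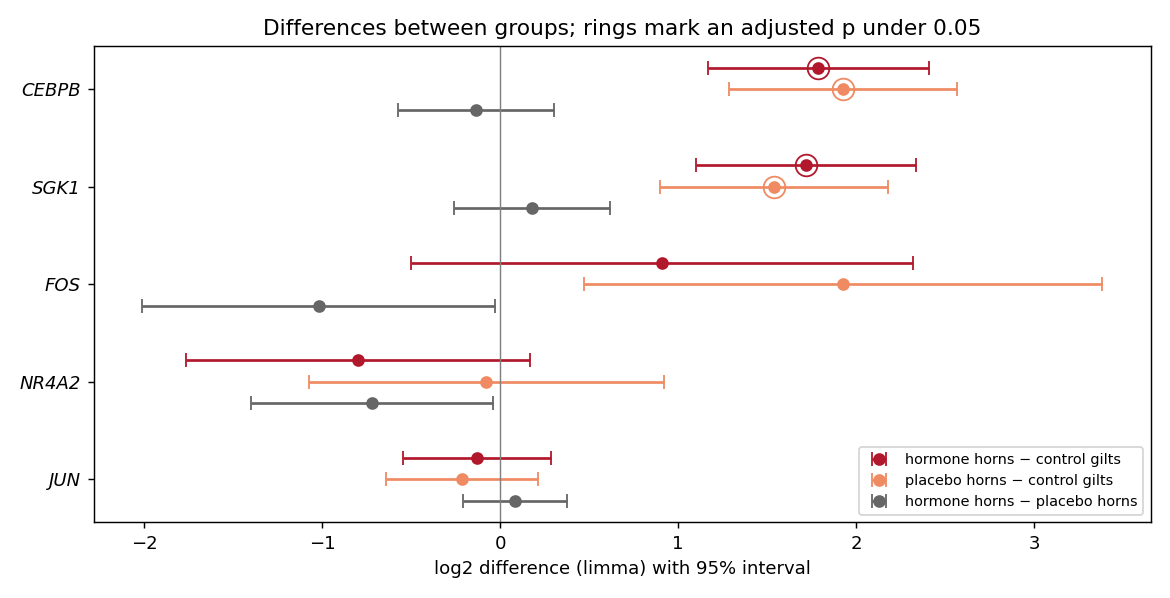
Differences in log2 signal between groups (horizontal axis) for each gene with 95% intervals from limma, and rings where the adjusted p was under 0.05. CEBPB and SGK1 sit between 1.54 and 1.92 above control gilts in both kinds of treated horn, and the differences between hormone and placebo horns have no ring.

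Between the hormone horn and the placebo horn of the same gilts, CEBPB and SGK1 did not pass. CEBPB was lower by 0.14 ± 0.21 log2 units on average (-0.14, 95% interval -0.57 to 0.30; limma adjusted p = 0.812) and SGK1 differed by 0.18 ± 0.21 (95% interval -0.26 to 0.62; limma adjusted p = 0.757). The intervals leave room for a CEBPB level in hormone horns of 0.672 to 1.23 times that in placebo horns and for an SGK1 level of 0.837 to 1.53 times. Of the 5 gilts with both horns, 3 had the higher CEBPB value in the hormone horn and 2 in the placebo horn, and the split was the same for SGK1. The mean difference over these 5 gilts was -0.15 for CEBPB and 0.08 for SGK1. In the order of group means the placebo and hormone horns came first for CEBPB (-1.61 ± 0.55 and -1.74 ± 0.37, SD), followed by control L (-3.32 ± 0.55) and control P horns (-3.73 ± 0.54). For SGK1 the order was hormone (2.43 ± 0.69), placebo (2.14 ± 0.37), control L (0.83 ± 0.39) and control P horns (0.60 ± 0.47), and in both genes neighbours within the treated and within the control gilts differed by less than their SD.

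Markers of other cells moved with both genes. The CEBPB value was highest, at -0.82, in the placebo horn of gilt 47, where the neutrophil sum was highest at 81.1. In the placebo horn of gilt 44 that sum was 0.317, below the control range, and there CEBPB was -2.15 and SGK1 1.63, both above every control horn. The macrophage and dendritic cell sum of the same horn was 19.7, above the 8.26 to 15.9 of control horns. Of the 5 epithelial markers measured, 3 rose in both kinds of horn (60%). Among RefSeq probes 15.2% were higher in hormone horns and 6.09% in placebo horns (6.85% and 2.56% of all probes). CLDN4, a tight junction protein, rose by 1.36 ± 0.33 in hormone horns (limma adjusted p = 0.0143) and by 1.53 ± 0.34 in placebo horns (limma adjusted p = 0.0253). EPCAM rose by 0.69 and 0.57 and CDH1 by 0.95 and 0.96. KRT8 and CLDN3 did not pass. In hormone and placebo horns KRT8 differed by -0.32 and -0.16 and CLDN3 by 0.08 and -0.04. The epithelial sum overlapped, with 103 to 201 in hormone horns, 118 to 172 in placebo horns and 103 to 140 in control horns. The median of the 5 epithelial markers, in log2 units above the control mean, did not overlap: it was 0.35 to 0.89 in hormone horns, 0.40 to 0.68 in placebo horns and -0.57 to 0.19 in control horns, so it set treated apart from control horns as CEBPB and SGK1 did.

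Markers of blood-derived and vascular cells moved as well. Beside the counts that follow, 15.2% of RefSeq probes (6.85% of all) were higher and 2.12% (4.89% of all) lower in hormone horns. In placebo horns 6.09% of RefSeq probes (2.56% of all) were higher and 0.68% (1.93% of all) lower. These shares are for the adjusted p. Counts at an unadjusted p under 0.05 come without such a share and are no result about the lists. Of 6 neutrophil markers 3 rose in hormone horns (S100A8, S100A9 and S100A12) and 2 in placebo horns (S100A8 and FCN1), while PGLYRP1 differed by -1.39 and -1.48 and did not pass (limma adjusted p = 0.105 and 0.125). Of 8 macrophage and dendritic cell markers LYZ, the lysozyme gene, rose in both, by 2.54 ± 0.57 in hormone and 2.67 ± 0.59 in placebo horns (limma adjusted p = 0.0104 and 0.0254), and CD14 and MRC1 rose in hormone horns, by 1.43 and 0.82. In placebo horns CD14 and MRC1 differed by 1.27 and 0.89 and did not pass (limma adjusted p = 0.0851 and 0.0526). At an unadjusted p under 0.05 (limma), 3 of the 8 were higher in hormone horns and 7 in placebo horns, and 0 were lower. In hormone horns 3 of 4 endothelial markers (VWF, CDH5 and ENG, by 0.79, 0.61 and 0.64) and 2 of 5 stromal markers (COL1A2 and THY1, by 0.75 and 2.40) also rose, whereas in placebo horns 0 of either list passed (limma; 3 and 1 higher at an unadjusted p under 0.05). The endothelial sum was 25.5 to 40.5 in hormone horns, and up to 42.6 in placebo horns, where it overlapped the 16.9 to 23.7 of control horns. Of 9 T and natural killer cell markers 1 passed in hormone horns, GZMB, which fell by 0.93 (-0.93, limma adjusted p = 0.0106), and 0 in placebo horns. At an unadjusted p under 0.05 (limma), 2 of the 9 were higher and 1 lower in hormone horns. In placebo horns 6 were higher and 1 lower. The 2 higher in hormone horns were CD3D and CD3G, by 1.05 and 1.22. Of the smooth muscle and B and plasma cell markers 0 passed in either comparison (limma, with 1 of the 6 higher in hormone horns at an unadjusted p under 0.05). The part of these cells in the CEBPB and SGK1 differences was not tested.

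**Figure D3:**
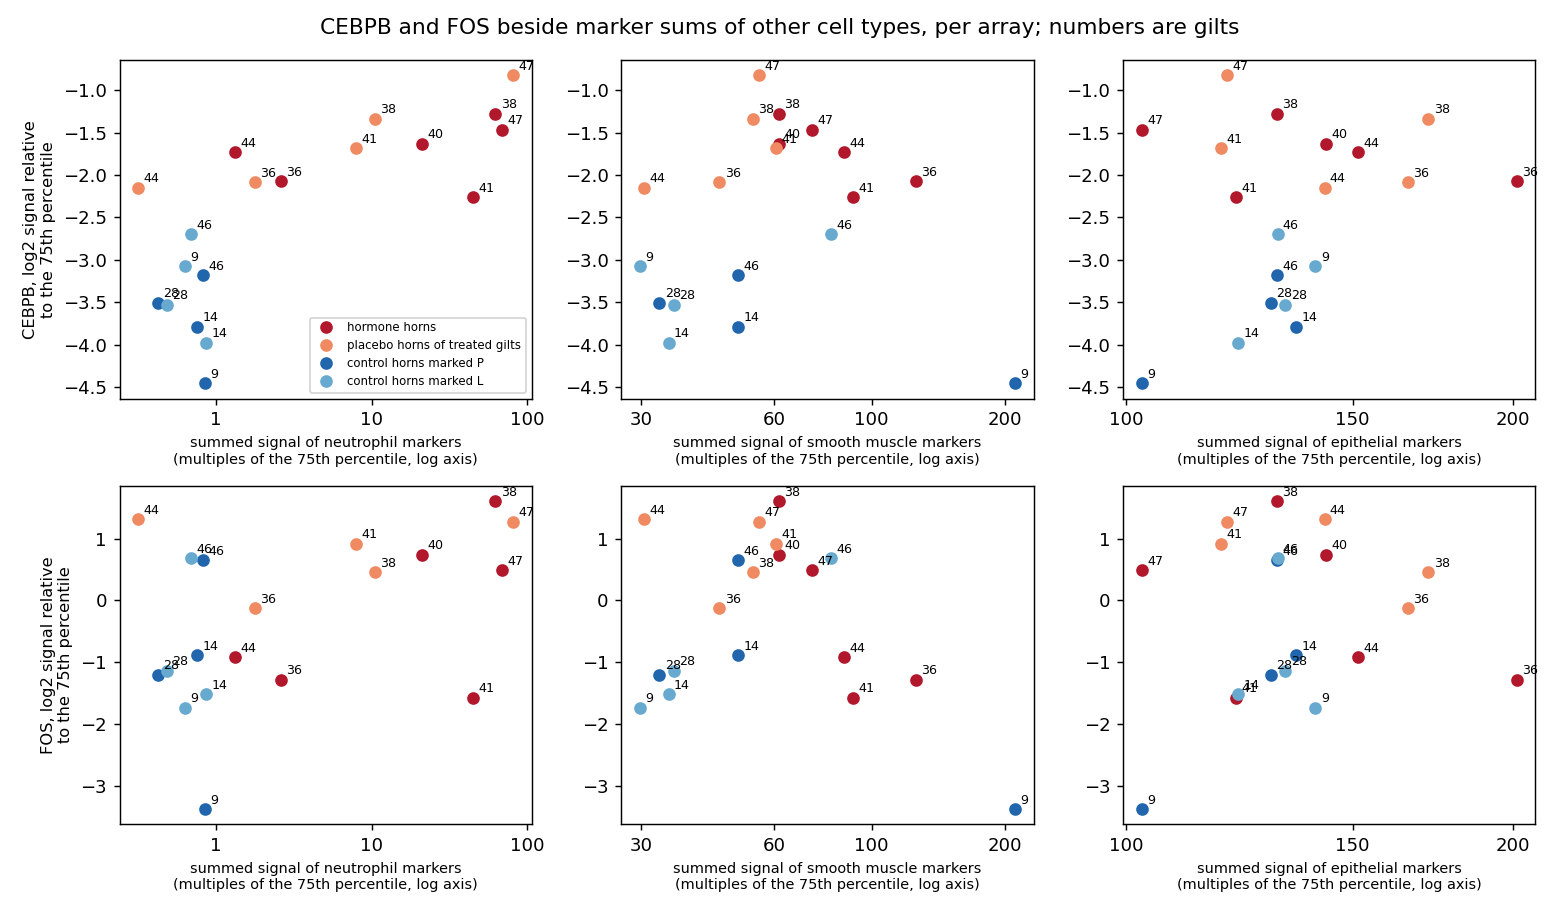
CEBPB (top) and FOS (bottom) in log2 units against the summed signal of neutrophil, smooth muscle and epithelial markers in multiples of the 75th percentile (log axes), 1 point per array labelled with its gilt. The placebo horn of gilt 44 has a neutrophil sum of 0.317 with CEBPB at -2.15, and the P horn of control gilt 9 has the highest smooth muscle sum, 211, with the lowest CEBPB and FOS values.

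FOS varied widely between animals of the same group. In hormone horns its log2 value was -1.58 at the lowest, -0.21 at the median and 1.61 at the highest. Placebo horns of treated gilts had -0.12, 0.45, 0.92, 1.31 and 1.28 in gilts 36, 38, 41, 44 and 47, while control gilts 9, 14, 28 and 46 had -3.37, -0.89, -1.20 and 0.65 in P horns and -1.73, -1.52, -1.14 and 0.68 in L horns. Both horns of control gilt 46 reached the level of placebo horns, and the other 6 control horns were below all 5 of them. The SD within groups was 1.20 log2 units, larger than that of 97.0% of probes, whose median was 0.35.

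None of the FOS differences passed. In hormone horns against control gilts the difference was 0.91 ± 0.67 (limma adjusted p = 0.409), and in placebo horns it was 1.93 ± 0.69, or 3.81-fold with a 95% interval of 1.39 to 10.4 (limma unadjusted p = 0.0121, adjusted p = 0.106). Without the P horn of control gilt 9 these became 0.62 and 1.64 (limma adjusted p = 0.580 and 0.159). In the order of means, placebo horns (0.77 ± 0.61) came before hormone horns (-0.16 ± 1.28), control L (-0.93 ± 1.10) and control P horns (-1.20 ± 1.66), and each neighbouring pair differed by less than the larger of its SDs.

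NR4A2, an orphan nuclear receptor induced through CREB, was the only one of the 5 genes with its lowest group mean in hormone horns. Its log2 value there was -3.21 at the lowest, -2.71 at the median and -0.17 at the highest. Placebo horns had -2.13, -0.87, -1.39, -1.12 and -2.59 in gilts 36, 38, 41, 44 and 47, and control gilts 9, 14, 28 and 46 had -2.08, -1.39, -2.37 and -0.87 in P horns and -1.75, -1.66, -1.73 and -1.19 in L horns. Of the 6 hormone horns, 5 lay between -3.21 and -2.60, below all control horns, whereas that of gilt 38 at -0.17 was the highest of all 19 arrays.

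Over all hormone horns NR4A2 differed from control gilts by -0.80 ± 0.46 log2 units and did not pass (limma adjusted p = 0.282). Gilt 38 decided this value: without it the difference was -1.25 ± 0.34 and passed (limma adjusted p = 0.0284). Since gilt 38 was left out in the same way as each other gilt and no label sets it apart, the value over all gilts stands as the result. Placebo horns differed from control gilts by -0.08 (95% interval -1.07 to 0.92; limma adjusted p = 0.941). Placebo horns (-1.62 ± 0.72), control L (-1.58 ± 0.26) and control P horns (-1.68 ± 0.68) had nearly the same mean, and hormone horns (-2.42 ± 1.13) came last.

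FOS and NR4A2 also gave the largest differences between the horns of treated gilts. Hormone minus placebo horn, FOS differed by -1.16, 1.16, -2.49, -2.23 and -0.78 log2 units in gilts 36, 38, 41, 44 and 47. NR4A2 differed by -0.59, 0.70, -1.20, -2.03 and -0.11 in the same gilts. Both genes were lower in the hormone horn in 4 of 5 gilts, and gilt 38 was the exception for both. In control gilts 9, 14, 28 and 46 the P horn differed from the L horn by -1.64, 0.63, -0.07 and -0.03 for FOS and by -0.33, 0.26, -0.64 and 0.32 for NR4A2.

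In the fit over all arrays, hormone horns differed from placebo horns by -1.02 ± 0.47 for FOS (limma unadjusted p = 0.0449, adjusted p = 0.498) and by -0.72 ± 0.32 for NR4A2 (limma unadjusted p = 0.0399, adjusted p = 0.488). None of the 5 genes passed and these 2 had an unadjusted p under 0.05, while 1 probe in all passed (0.00256% of 39094) and 3839 had an unadjusted p under 0.05. The horn difference of control gilts is the background for 2 horns of 1 animal, and against it no difference was detected for either gene. The limma 95% intervals were wide, -2.25 to 0.76 log2 units for FOS and -1.65 to 0.41 for NR4A2. An exact two-sided permutation test over 5 treated and 4 control gilts gave p = 0.349 for FOS and 0.389 for NR4A2. The other 3 genes gave 0.548 (CEBPB), 0.325 (SGK1) and 0.643 (JUN), and the smallest p that the splits of 9 gilts allow is 0.00794. In limma the same difference of differences passed for none of the 5 genes and for 0.0% of probes, and none of the 5 had an unadjusted p under 0.05 (1280 probes did). Between P and L horns of control gilts 0.0% of probes passed, and none of the 5 genes had an unadjusted p under 0.05 (945 probes did).

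**Figure D4:**
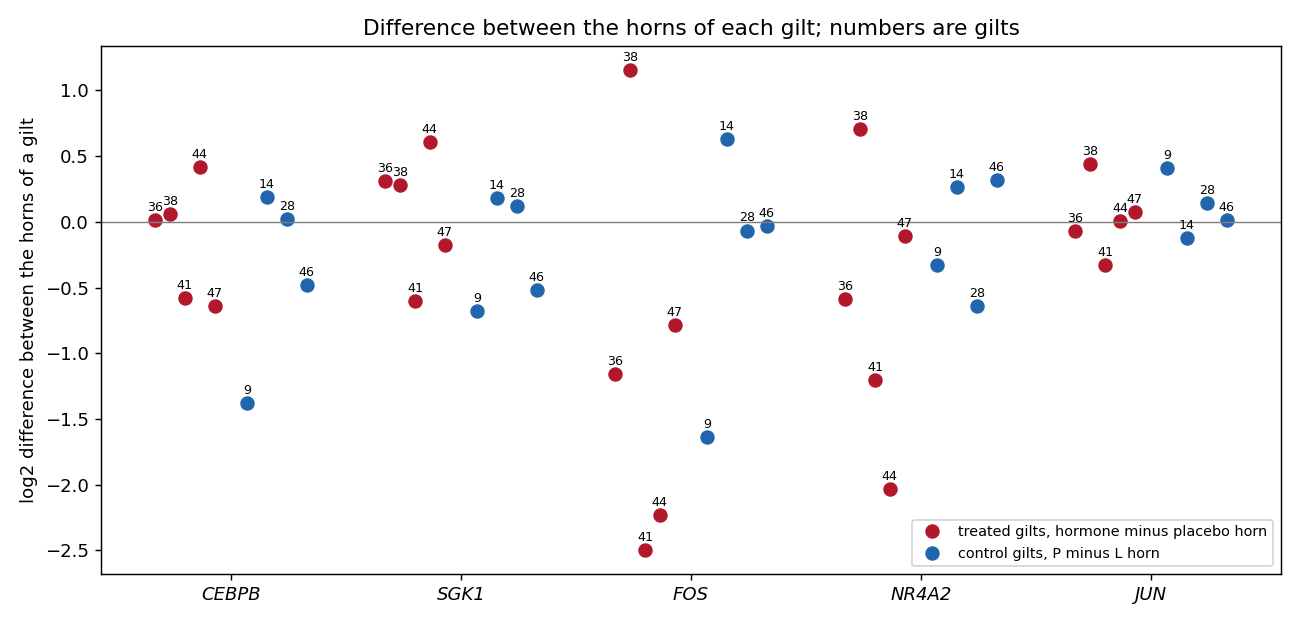
Log2 difference between the 2 horns of each gilt (vertical axis) for the 5 genes, hormone minus placebo horn in 5 treated gilts and P minus L horn in 4 control gilts, labelled with the gilt. FOS and NR4A2 lie below 0 in 4 of 5 treated gilts, with gilt 38 above 0 in both, and CEBPB, SGK1 and JUN scatter on both sides of 0.

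In each of the 5 gilts the hormone horn had the higher smooth muscle marker sum. The sum was at least 61.6 in every hormone horn and at most 60.6 in every placebo horn. The hormone horn had 2.79 times the sum of the placebo horn in gilt 36, 2.84 times in gilt 44 and 1.32 times in gilt 47, with gilt 41 between the last of these and gilt 36. The ratio was smallest, 1.15, in gilt 38, where FOS and NR4A2 were higher in the hormone horn. Gilt 38 also had the lowest epithelial ratio of the 5 gilts, 0.763, and the highest neutrophil ratio, 5.94. Its ratio was at neither end for the stromal, endothelial, macrophage and dendritic cell, T and natural killer cell, and B and plasma cell markers. In control gilts 9, 14, 28 and 46 the P horn had 7.07, 1.44, 0.928 and 0.616 times the sum of the L horn. FOS and NR4A2 differed there by -1.64 and -0.33 in gilt 9, 0.63 and 0.26 in gilt 14, -0.07 and -0.64 in gilt 28 and -0.03 and 0.32 in gilt 46, so the gilt with the highest ratio had the lowest FOS difference but not the lowest NR4A2 difference. The part of smooth muscle or of any other cell type in the horn differences of FOS and NR4A2 was not tested.

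JUN, which forms AP-1 with FOS, varied least of the 5. In hormone horns its log2 value was 4.85 at the lowest, 5.51 at the median and 6.12 at the highest. Placebo horns had 4.92, 5.29, 5.74, 5.59 and 5.06 in gilts 36, 38, 41, 44 and 47, against 5.48, 5.74, 5.89 and 5.53 in P horns and 5.07, 5.86, 5.75 and 5.52 in L horns of control gilts 9, 14, 28 and 46. All groups overlapped. The difference from control gilts was -0.13 ± 0.20 in hormone horns (0.685 to 1.22 times, 95% interval; limma adjusted p = 0.718) and -0.21 ± 0.20 in placebo horns (0.640 to 1.16 times; limma adjusted p = 0.552), and hormone horns differed from placebo horns by 0.08 (0.864 to 1.30 times; limma adjusted p = 0.83). In the order of means control P (5.66 ± 0.19) and L horns (5.55 ± 0.35) came before hormone (5.47 ± 0.45) and placebo horns (5.32 ± 0.35), and no neighbours differed by more than an SD.

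Across the 19 arrays, which share gilts and the steps between groups, CEBPB and SGK1 had a Pearson r of 0.89, CEBPB and FOS 0.73, and SGK1 and FOS 0.64. After the mean of each group was subtracted these were 0.56, 0.72 and 0.59. FOS and NR4A2 had r = 0.34 over all arrays and 0.51 after subtraction. JUN had an r between -0.30 and 0.15 with the others over all arrays. With FOS and CEBPB, JUN had 0.07 and -0.30 over all arrays and 0.34 and -0.05 after subtraction.

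Among 2943 other named genes, those most like CEBPB over the 19 arrays were TIMP2, an inhibitor of matrix metalloproteinases (r = 0.95), the calcium channel ORAI1 (0.93) and CLDN4 (0.93). With SGK1 these were the peptide transporter SLC15A1 (0.93), DLST of the citrate cycle (0.93) and GGT1, a peptidase of glutathione breakdown (0.93). FOS was most like AREG (0.85), TFAP2C (0.84) and HBEGF (0.83), of which AREG and HBEGF are ligands of the epidermal growth factor receptor. Among the genes most like NR4A2 were B3GNT5 (0.83) and TRPC1 (0.77), and JUN was most like CYP17A1 (0.75), CKMT2 (0.75) and SEC62 (0.74). After subtraction of group means the closest were FAM110D, TIMP2 and NFATC1 for CEBPB (0.92, 0.89 and 0.89), HCRTR1, DLST and SLC15A1 for SGK1 (0.87, 0.87 and 0.84), AREG, CHORDC1 and KLF2 for FOS (0.81, 0.81 and 0.79), B3GNT5, KIF1BP and KLF5 for NR4A2 (0.82, 0.79 and 0.78), and FSCN1, MMP9 and GRK7 for JUN (0.81, 0.79 and 0.77).

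Other genes of the same pathways were read from lists of known members, all through RefSeq probes. The lists were chosen with earlier results of these data known. A share above that of all probes is therefore no independent evidence. Counts against control gilts at an unadjusted p under 0.05 come without the share of all probes at that threshold. They are no result about the lists. Of 34 genes listed for the C/EBP family and its acute phase targets 23 were measured, and 7 rose and 0 fell in hormone horns against control gilts (30.4% of the 23, against 6.85% of all probes and 15.2% of RefSeq probes higher). The calcium-binding proteins S100A8 and S100A9 rose by 6.41 ± 1.15 and 5.65 ± 1.06 log2 units and the serum amyloid gene SAA3 by 5.34 ± 0.99 (limma adjusted p = 0.00358, 0.00442 and 0.00414). S100A8 and S100A9 also stand in the neutrophil list, whose sums are given above. In placebo horns 3 of the 23 rose (13.0%, against 2.56% of all and 6.09% of RefSeq probes), SAA3, S100A8 and CHI3L1, by 4.32 ± 1.02, 4.34 ± 1.19 and 3.54 ± 0.98 (limma adjusted p = 0.0311, 0.0454 and 0.0472). At an unadjusted p under 0.05 (limma), 10 of the 23 were higher and 0 lower in hormone horns, and 11 higher and 1 lower in placebo horns. Among the acute phase genes that did not pass, HP differed by -0.70 and -0.51 in hormone and placebo horns. CRP differed by -0.26 and -0.33 and LBP by 0.09 and 0.09. The list's median difference was 0.66 in hormone horns and 0.73 in placebo horns, against 0.01 and -0.06 over all probes and 0.20 and 0.13 over RefSeq probes. Without the P horn of control gilt 9 the counts were 5 and 1, and without gilt 47 and gilt 36's hormone horn they were 8 and 1.

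Of 49 listed early response genes 15 were measured, and 1 rose in hormone horns (6.67%, close to the 6.85% of all probes and below the 15.2% of RefSeq probes): NFKBIA, the inhibitor of NF-kB, by 1.13 ± 0.35 (limma adjusted p = 0.0416), which did not pass without the P horn of control gilt 9 or without gilt 47 and gilt 36's hormone horn. In placebo horns 0 of 15 passed (limma; 6 higher and 0 lower at an unadjusted p under 0.05). The median of the 15 was 0.15 in hormone horns and 0.52 in placebo horns. Of 24 AP-1 targets 15 were measured, with a median of 0.76 in hormone horns and 0.90 in placebo horns; 1 rose in hormone horns (6.67%, again no more than among all probes), the quinone reductase NQO1 by 0.76 ± 0.24 (limma adjusted p = 0.0483), and 0 in placebo horns (limma; 5 higher at an unadjusted p under 0.05). NQO1 did not pass without the P horn of control gilt 9 or without gilt 47 and gilt 36's hormone horn. Of 17 other AP-1 family genes 0 were measured here.

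Of 45 genes of the cyclic AMP pathway and targets of CREB 15 were measured. In each comparison with control gilts 1 of the 15 fell (6.67%). Lower in hormone horns were 4.89% of all and 2.12% of RefSeq probes, and in placebo horns 1.93% and 0.68%. STAR, the carrier that brings cholesterol into mitochondria, fell by 0.55 ± 0.18 in hormone horns (-0.55; limma adjusted p = 0.0481) and by 0.67 ± 0.18 in placebo horns (-0.67; limma adjusted p = 0.0443), and 0 rose in either (limma; 4 and 6 higher at an unadjusted p under 0.05). Neither STAR call held without the P horn of control gilt 9. The median of the 15 was 0.21 in hormone horns and 0.25 in placebo horns. Of 23 genes of the SGK1 pathway 9 were measured and 0 passed in either comparison (limma; 1 and 0 higher at an unadjusted p under 0.05), with a median of 0.15 in hormone horns and 0.08 in placebo horns.

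Of 19 corticosteroid responsive genes 8 were measured, and in hormone horns 2 rose and 1 fell. These were 25% and 12.5% of the 8, against 15.2% of RefSeq probes higher and 2.12% lower (6.85% and 4.89% of all probes). HSD11B1, the enzyme that regenerates active glucocorticoid, rose by 1.48 ± 0.26 (limma adjusted p = 0.00291), NFKBIA is given above, and the glucocorticoid receptor NR3C1 fell by 0.42 ± 0.12 (-0.42; limma adjusted p = 0.0322). Without the P horn of control gilt 9 the counts were 1 and 0. In placebo horns 0 of 8 passed (limma; 2 higher and 1 lower at an unadjusted p under 0.05), and NR3C1 differed by -0.34 (limma adjusted p = 0.119). Of 26 upstream MAP kinase genes and ligands 6 were measured. The ligand EGF fell by 2.04 ± 0.46 in hormone horns (-2.04, limma adjusted p = 0.0106). That is 16.7% of the 6, against 2.12% of RefSeq and 4.89% of all probes lower. In placebo horns 0 of the 6 passed (limma, with 2 higher and 2 lower at an unadjusted p under 0.05). Of 10 hormone receptors 4 were measured and 0 passed in either comparison (limma; 1 lower in each at an unadjusted p under 0.05): ESR1, the estrogen receptor, differed by -0.59 and -0.71 in hormone and placebo horns (limma adjusted p = 0.0665 and 0.0568) and PGR, the progesterone receptor, by 0.33 and 0.02 (limma adjusted p = 0.382 and 0.972). PTGER2 and PTGER4, receptors through which PGE2 raises cyclic AMP, were not analysed here. In hormone against placebo horns 0 genes of these lists passed (limma; between 0 and 3 of each list at an unadjusted p under 0.05).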

How the data were processed

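RNA of 19 uterine horns was hybridized to 1-colour Agilent arrays. The scanner files that the authors deposited give a linear intensity per spot. Per the file headers, Agilent Feature Extraction 10.7.3.1 subtracted background and detrended each array without scaling arrays to each other, and the submitters' processing notes give version 9.1. The deposited flags mark spots well above background or with outlying values. The authors' deposited value table holds log2 values of these arrays (r between 0.996 and 0.999 against the scanner signals, medians 7.72 to 7.83). The normalization and centring of that table remain unknown, and it was tried as an alternative.

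Without control spots and outlier-flagged values, spots of a probe were averaged, and the processed signal was divided by the array's 75th percentile and put on the log2 scale. Probes with the above-background flag on 4 or more arrays were fitted with limma 3.58.1 in R 4.3.3 (4 groups, gilt as a random block through duplicateCorrelation of statmod 1.5.0, correlation within a gilt 0.536, eBayes with an intensity trend). All tests were two-sided. P-values were adjusted after Benjamini and Hochberg over all probes tested, and under 0.05 counted as passing. Control gilts enter as the mean of the P and L groups. Comparisons with control gilts set 6 treated gilts, 5 of them with a placebo horn, against 4, while the fit counts arrays. The number of arrays limits the precision. Scripts were tested on simulated data. Python 3.11.15 and matplotlib 3.10.9 served for tables and figures.

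Arrays with the same gilt number come from the same animal. Their deviations from group means correlated at 0.336 to 0.795 in treated and 0.403 to 0.627 in control gilts, against at most 0.113 and 0.0181 between gilts. A gilt's horns shared 1 slide. Treated gilt 36 and control gilt 9 were on the same slide, and every other slide held 1 gilt. Apart from these gilts, slide cannot be told apart from gilt or from treatment.

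Gene symbols came from RefSeq accessions in the scanner files looked up in the Sscrofa11.1 gene table, which gave 1 gene for 6876 of 43603 probes. A gene was represented by its probe with the highest mean signal, and each of the 5 genes had 1 probe. The genes and the lists were chosen with earlier results of these data known, and CEBPB had been named in them. Of each list, the members that passed were counted and up to 3 with the smallest p named. Some members that did not pass were named as well. ESR1, PGR, PTGER2, PTGER4 and NR3C1 were named whatever their values. For each of the 5 genes the 3 named genes with the highest Pearson correlation were given, except 1 that is not reported here. Alternatives were other scalings, background corrections, filters, blocks, batch terms and leaving out arrays. The files hold no mean signals, so the normexp correction used median signals.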

Additional observations from a re-analysis of the deposited data

Results flagged for a closer look

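Of 30 sets of values (the 5 genes in each of 4 groups and their horn differences in treated and in control gilts), 2 had a sample far from the others by Dixon's criterion, which chance gives in about 1 of 20 sets. NR4A2 in the hormone horn of gilt 38 was at -0.17 log2 units, with a gap to the next hormone horn of 0.80 of the group's range (6 arrays). NR4A2 in the L horn of control gilt 46 was at -1.19, with a gap to the next L horn of 0.83 of the range (4 arrays).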

How the results depend on the processing

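In hormone horns against control gilts, CEBPB and SGK1 kept their direction under all 29 alternatives, at 1.10 to 1.98 and 1.51 to 1.98 log2 units, and passed in 25 of them each. They did not pass within scan day 1 (1.87 and 1.98), day 2 (1.75 and 1.68) or day 3 (1.57 and 1.51), where fewer arrays entered, or with a term for the brightness of RefSeq over contig probes (1.14 and 1.66). In placebo horns against control gilts they kept their direction under all 29, at 1.25 to 2.19 and 1.42 to 1.89, and passed in 21 and 19. Calls were lost with only the groups of the comparison (1.91 and 1.43), with each control gilt's horns averaged (also 1.91 and 1.43), within scan days 1, 2 and 3 (1.65, 2.19 and 1.86 for CEBPB, 1.52, 1.80 and 1.46 for SGK1), with the RefSeq and contig term (1.25 and 1.47) and, for SGK1, without gilt 47 and gilt 36's hormone horn (1.48). Without each gilt in turn the placebo values were 1.73 to 2.12 for CEBPB and 1.43 to 1.70 for SGK1. The cause of these losses was not tested. Among the alternatives that passed, the fit with slide as a term rested on treated gilt 36 against control gilt 9 alone. The lowest CEBPB difference in hormone horns, 1.10, came from normexp on median signals.

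The gilt number pairs the horns, and the main model holds it as a random block. With no replicate block CEBPB and SGK1 differed by 1.79 and 1.72 in hormone horns and by 1.91 and 1.43 in placebo horns and passed, NR4A2 in placebo horns against control gilts was 0.0069 and JUN in the horn difference of treated minus control gilts 0.042, both with the sign turned. With the gilt as a fixed replicate block, hormone horns differed from placebo horns by -0.15 for CEBPB and -0.65 for NR4A2, and it changed no call of the 5 genes. The number of probes called did move. With no block it was 6965 in hormone horns against 4591 and 3565 in placebo horns against 1754. With the control horns averaged it was 2528 and 0, and with only the groups of the comparison 3219 and 14. With slide as a term no count is given, since the comparison with control gilts then rested on gilt 36 against gilt 9 alone. Without each gilt in turn the number of probes called was 1459 to 5233 and 0 to 3209. Within scan days it was 0 to 74 and 0 to 10. Between hormone and placebo horns the count was 0 to 33 over the alternatives, against 1.

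NR4A2 in hormone horns against control gilts was -1.25 to -0.60 without each gilt in turn and passed only without gilt 38. Values that did not pass also turned sign. With the RefSeq and contig term NR4A2 was 0.40 in hormone and 1.17 in placebo horns, JUN 0.16 and 0.085 and the JUN horn difference 0.029. Without gilt 47 and gilt 36's hormone horn, JUN was 0.042 and NR4A2 in placebo horns 0.14, and CEBPB in hormone against placebo horns was 0.033 and the JUN horn difference 0.090. Without the hormone horn of gilt 36 alone that JUN difference was 0.041. NR4A2 in placebo horns was 0.018 with normexp, 0.0069 with only the groups of the comparison or averaged control horns, 0.29 and 0.23 within scan days 1 and 2, and -0.25 to 0.15 without each gilt in turn. JUN in placebo horns was 0.12 within day 2. In hormone against placebo horns, CEBPB was 0.22 within day 1, NR4A2 0.30 and FOS 0.19 within day 3, SGK1 -0.12 within day 2, and JUN -0.0080 with quantile normalization, -0.032 and -0.16 within days 1 and 2 and -0.0055 to 0.19 without each gilt in turn. Between the horns of control gilts, CEBPB, SGK1 and FOS were 0.11, 0.15 and 0.28 within day 2 and NR4A2 0.32 within day 3, NR4A2 and FOS 0.0059 and 0.30 without the P horn of gilt 9, and -0.24 to 0.085 and -0.58 to 0.18 without each gilt in turn. The horn difference of treated minus control gilts turned for CEBPB (-0.54 within day 2, -0.011 without the P horn of gilt 9, -0.047 to 0.48 without each gilt in turn), SGK1 (-0.26 within day 2), FOS (0.21 within day 3) and JUN (0.24 within day 3, -0.12 to 0.075 without each gilt in turn). In the permutation test of that difference it was -0.057 to 0.47 for CEBPB and -0.19 to 0.013 for JUN without each gilt in turn. None of these passed, and the cause was not tested.

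Signal over background did not limit the 5 genes, whose probes were above it on every array. The number of gilts was also a limit: the difference between horns rests on 5 treated and 4 control gilts. As each gene had 1 probe, another probe per gene could not be tried. Within scan days the correlation within a gilt was taken from the fit over all arrays.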
